A study of Danio rerio with 4 samples.

Results

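The transcripts described here are those whose values in *gsp* mutants and in *rhs* mutants departed differently from the values of their own siblings. For each transcript with an estimated count of at least 100 in all 4 libraries, the log2 ratio of mutant to sibling was taken in each line and its median over these transcripts was subtracted, which gives the *gsp* response and the *rhs* response. The *rhs* response was then subtracted from the *gsp* response, and a transcript was a member if this response difference was at least 1 on the log2 scale, that is 2-fold, in either direction. Of 27423 deposited transcripts, 13633 passed the minimum, and 361 of these (2.65%) were members. The *gsp* response was the higher one for 186 (1.36%) and the *rhs* response for 175 (1.28%). Because the values themselves chose the members, their differences are given as a description with no test.

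Whole zebrafish larvae at 48 hours post fertilization (hpf) were sequenced as 4 pools of RNA, 1 library per condition. The *gsp* (*goosepimples*) mutant library came from homozygous Myovb(-/-) larvae and the *rhs* (*romeharsha*) mutant library from homozygous romeharsha(-/-) larvae. The sibling library of each line held heterozygous and homozygous wild-type larvae together, and all larvae came from crosses of heterozygous parents. No drug or other treatment was given, and embryos of a condition were pooled, so a value stands for a pool and not for an animal.

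The gene altered in *gsp* encodes myosin Vb, a motor that carries recycling endosomes along actin filaments, while the gene altered in *rhs* is not known from the sources used here. At this stage the epidermis of the zebrafish is a flat outer periderm, derived from the enveloping layer of the early embryo, over a basal layer, and in both mutants peridermal cells round up. The same larvae hold a differentiating retina, contracting trunk muscle, a growing fin fold and a liver that is starting to secrete plasma proteins, and RNA from all of these is in each library.

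The summed estimated counts lay between 106188690 and 118680429 per library. With 1 library per condition no difference between conditions has a replicate check. Intervals given for response differences are at 95% on the log scale with Poisson counting and cover counting error only. Their half-width had a median of 0.198 over the members, and for 173 of the 361 the whole interval lay past the threshold. *myo5b* itself stood at the floor of 1 in the *gsp* mutant library and at 193 and 87.8 in *rhs* mutants and siblings, but it was also at the floor in the *gsp* sibling library, whose pool is labelled as holding wild-type and heterozygous larvae. The gene therefore does not tell the library labelled *gsp* mutant from the one labelled *gsp* sibling, and why the sibling value was at the floor was not tested. A floor in both libraries of a line is common in the deposited values, with 414 transcripts at the floor in both *gsp* libraries and at 50 or more in both *rhs* libraries, and 473 the other way round. Mutant and sibling are used throughout as the labels give them.

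The members were not one pattern but several. Among the 186 with the higher *gsp* response, 110 had a *gsp* value within 1.5-fold (rounded) of the sibling and an *rhs* value at least 1.5-fold below it, all after centring. Another 39 were higher in *gsp* mutants with *rhs* within that limit, and 21 were higher in *gsp* and lower in *rhs*. Among the 175 with the higher *rhs* response, 67 were lower in *gsp* only, 61 were higher in *rhs* only and 19 were lower in *gsp* and higher in *rhs*. Both responses were higher in 36 members, which differed in how far. Taken singly, a response of at least 1.5-fold was found for 6.69% of the kept transcripts upward and 2.81% downward in *gsp*, and for 10.2% upward and 5.12% downward in *rhs*. Responses of at least 1.5-fold in opposite directions were seen for 40 transcripts (0.293%), and all 40 were members, as the definition makes them.

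**Figure D1:**
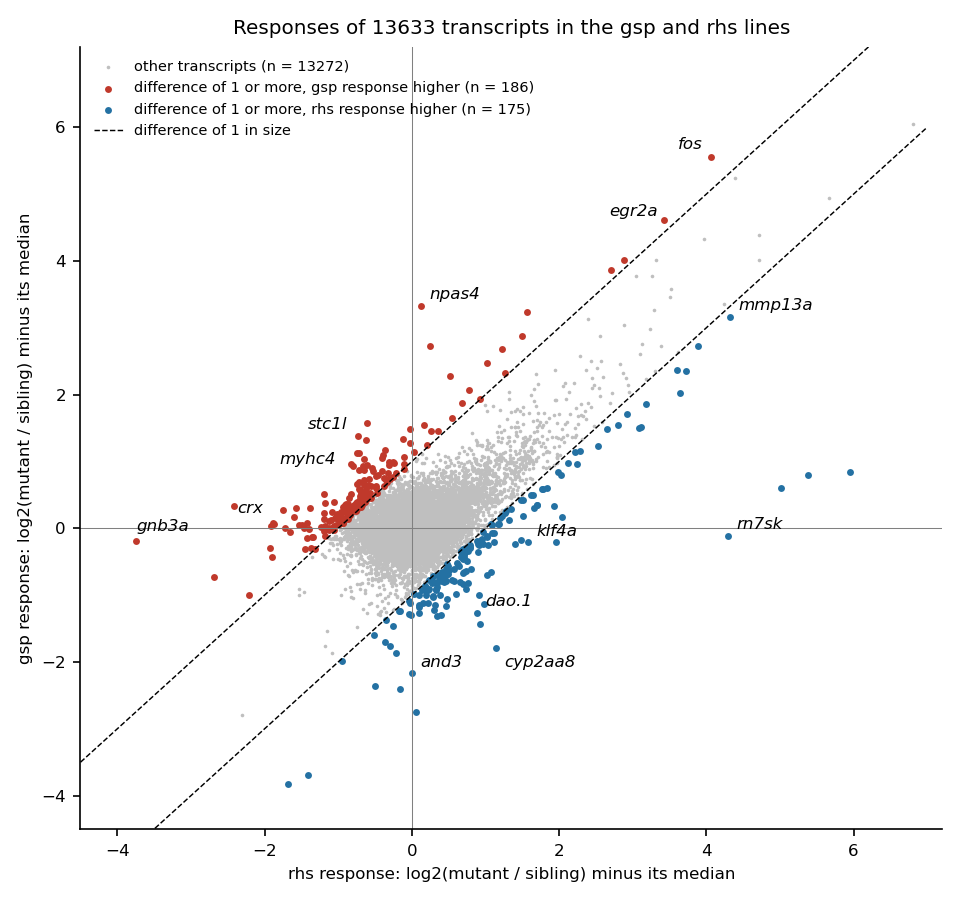
The *rhs* response is on the horizontal axis and the *gsp* response on the vertical axis, both as centred log2 ratios of mutant to sibling, with 1 point per transcript and 1 library per condition. Dashed lines mark a response difference of 1 in size, the 186 members above them are red, the 175 below them are blue, and *gnb3a*, *npas4* and the cluster around *rn7sk* lie farthest from the lines.

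How many members fell on each side depended on the scaling. With median centring 51.5% had the higher *gsp* response, with no centring 66.7%, with division by the total of each library 77.0% and with the authors' normalized columns 37.6%. Division by the library total moved all differences up by 0.15 on the log2 scale. Members with a small difference can therefore leave or enter the set, and the nearest ones show how close the line is. *ckma*, *pcp4l1* and *rhcga* lay just inside at 1.001, 1.004 and 1.004, and *papss2a*, *vamp2* and *gpib* just outside at 0.999, 0.998 and 0.995. On the other side *frem2a*, *cyp2aa3* and *znf750* lay inside at -1.012, -1.013 and -1.018, and *renbp*, *rtkn2* and *cldn7b* outside at -1.0, -0.995 and -0.995. Only 21 members had a difference of 2 or more in size, 7 of them with the higher *gsp* response and 14 with the higher *rhs* response.

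Several genes of the developing retina were at a lower level in *rhs* mutants than in their siblings while their values in *gsp* mutants stayed near the sibling values. Of 33 kept transcripts in a retina and photoreceptor list, 8 were members, all with the higher *gsp* response (24.2%, against 1.36% of all kept transcripts), and the median response was -0.03 in *gsp* and -0.43 in *rhs*. Of the 33, 13 were at least 1.5-fold lower in *rhs* mutants, beside 5.12% of all kept transcripts, 1 was in *gsp* mutants, and 8 had a difference below 0. In whole larvae fewer cells of a type and less RNA per cell cannot be told apart.

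The member with the largest difference on the *gsp* side was *gnb3a*, the beta subunit of the cone transducin that couples opsins to phosphodiesterase, on chromosome 16 of danRer7 from 13772557 to 13799766. Its estimated count was 4750 and 5835 in *gsp* mutants and siblings and 188 and 2890 in *rhs* mutants and siblings. The *rhs* mutant library alone was low, and the response difference was 3.55 (counting interval 3.33 to 3.77). *crx*, the homeobox regulator of photoreceptor genes, on chromosome 5 from 38532904 to 38536605, had 13911 and 14592 in *gsp* mutants and siblings and 2014 and 8712 in *rhs* mutants and siblings, a difference of 1.96. Its paralogue *otx5* had 6038 and 5766 in *gsp* and 1140 and 3983 in *rhs*, a difference of 1.78. In both genes the *gsp* pair agreed within 1.05-fold, and the *rhs* mutant was at 0.231 and 0.286 of its sibling.

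Outside the list, *six7*, a homeobox gene that cone cells of the zebrafish need for their middle-wavelength opsins, counted 2834 and 2531 in *gsp* mutants and siblings and 552 and 2133 in *rhs*. Its response difference was 2.03. *vsx1*, a homeobox gene of bipolar interneurons, had 11619 and 12140 in *gsp* and 2523 and 8123 in *rhs*, a difference of 1.53. *nr2e3*, a nuclear receptor of photoreceptor precursors, stood at 3161 and 3137 in *gsp* and 816 and 1997 in *rhs*, and *rcv1*, a recoverin, the calcium sensor of photoreceptors, at 2439 and 3264 in *gsp* and 649 and 2036 in *rhs*. The remaining list members were *rx3*, an eye field homeobox gene, with a difference of 1.45, and *neurod*, a proneural factor, with 1.01. In each of these genes the *rhs* mutant held the lowest of the 4 values.

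Some members outside that list are known from the retina, and those named here had their lowest value in the *rhs* mutant. *samd7*, a repressor in photoreceptors, had a difference of 1.56, and *prom1b*, a prominin of the photoreceptor outer segment, 1.5. *bhlhe23*, a helix-loop-helix factor of retina and brain, had 1.63. Clone names hid others, since the row zgc:193504 is *pax10* in RefSeq and had a difference of 1.73, and zgc:73189 is *rgs9b*, which shortens the transducin signal, with 1.33. These were chosen from the members after their values were seen, so they do not show how other retinal genes outside the list behaved.

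Not every gene of the visual cascade reached the threshold. Rod opsin (*rho*) was at 2155 and 2696 in *gsp* mutants and siblings and at 497 and 1234 in *rhs*. Its difference of 0.90 stayed just under the threshold, with a counting interval that reached past it (0.73 to 1.07). The rod transducin gene *gnat1* had 0.52 and the cone transducin gene *gnat2* -0.12 (-0.52 to 0.28), so the alpha and beta subunits of cone transducin did not share a pattern. Of 64 list transcripts, 31 were below the minimum, among them most cone opsins. The ultraviolet opsin *opn1sw1* was at 134 and 207 in *gsp* mutants and siblings and at 14.7 and 49.2 in *rhs*. The pineal opsin *exorh* was at 123 and 161 in *gsp* and at the floor of 1 in both *rhs* libraries, siblings included. Summed over the list, the estimated counts were 100721 and 112095 in *gsp* mutants and siblings and 47349 and 82900 in *rhs* mutants and siblings, with 5 transcripts at the floor in every library, *pde6a*, *pde6b* and *cngb3* among them. The siblings also differed in some of these genes, with the *gsp* sibling higher by 2.02-fold for *gnb3a* and 1.67-fold for *crx*, closer at 1.19-fold for *six7*, 1.12-fold for *neurod* and 1.09-fold for *prom1b*, and lower, at 0.757 of the *rhs* sibling, for zgc:73189 (*rgs9b*).

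**Figure D2:**
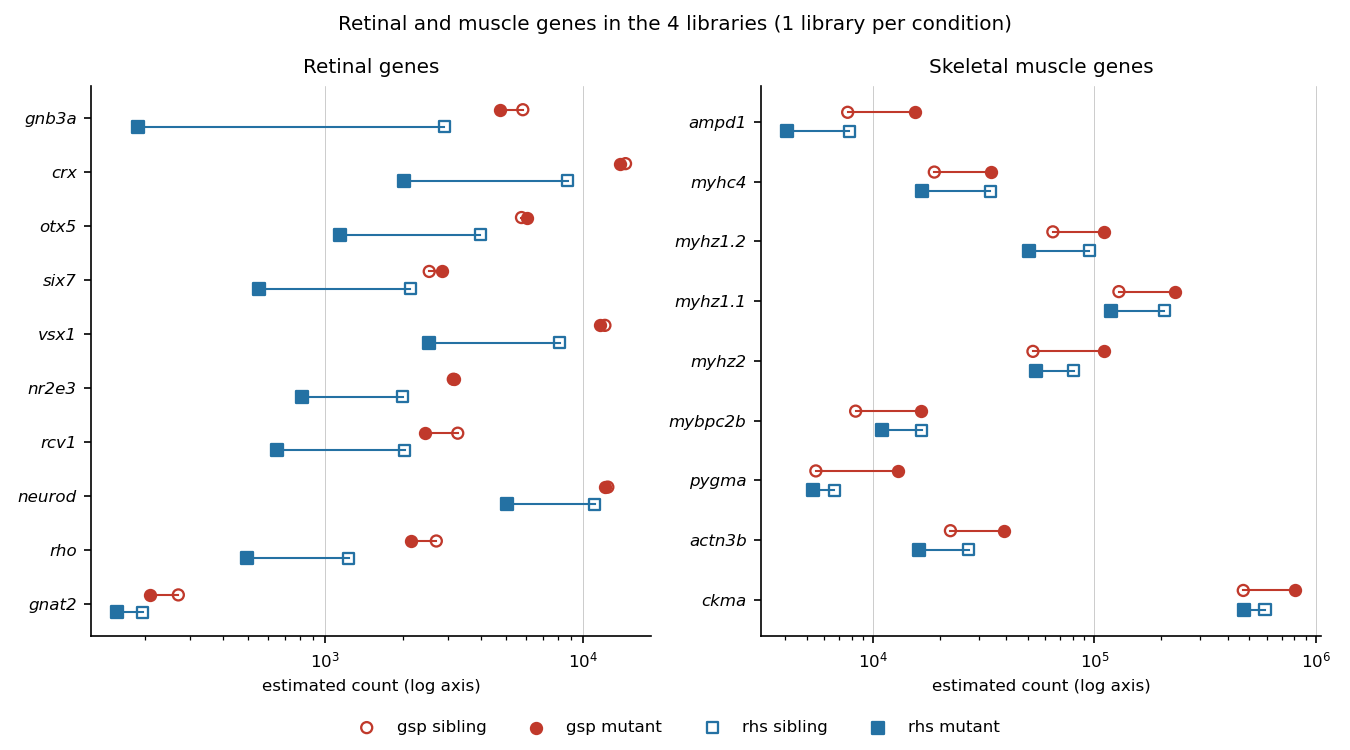
Estimated counts on a log axis for retinal genes (left) and skeletal muscle genes (right), with circles for *gsp*, squares for *rhs*, filled marks for mutants and open marks for siblings, 1 library each. For retinal genes other than *gnat2* the filled square stands apart on the low side, from 188 for *gnb3a* to 5086 for *neurod*. For *gnat2* the filled square is at 155.8, near its sibling at 196.2. For muscle genes the filled circle lies above its sibling and the filled square below it.

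Most synaptic genes had a response difference of the same sign, above 0 in 64 of 70 kept transcripts of a synapse list. Of the 70, 5 were members with the higher *gsp* response (7.1%, against 1.36% of all kept transcripts) and 0 with the lower, and the median difference was 0.56 beside -0.02 for all kept transcripts. Here 34 of the 70 were at least 1.5-fold lower in *rhs* mutants after centring and 0 in *gsp* mutants, beside 5.12% and 2.81% of all kept transcripts. *syt5b*, a synaptotagmin that senses calcium for vesicle release, had 2602 and 2685 in *gsp* mutants and siblings and 405 and 1704 in *rhs*, a difference of 1.94. *stxbp1b*, a syntaxin-binding protein of vesicle docking, had 1081 and 948 in *gsp* and 174 and 598 in *rhs*, a difference of 1.88. Only the *rhs* mutant was low in either gene.

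A further synapse member was *nlgn3a*, a neuroligin of the postsynaptic membrane (1.08). Among the signalling genes of neurons, *gng13b*, a G protein gamma subunit, had 5152 and 6141 in *gsp* and 1404 and 4338 in *rhs*, and *atp2b1b*, a plasma membrane calcium pump, had a difference of 1.09.

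Some homeobox and other regulators of the forebrain and hypothalamus were members too, picked out after their values were seen and with no list of such genes to count them against. *foxg1b*, of the telencephalon, had 6081 and 5077 in *gsp* mutants and siblings and 2276 and 4854 in *rhs*, a difference of 1.26. *sim1a* (1.31), *nkx2.1a* (*nkx2.4b* in RefSeq, 1.13), *bsx* (1.06) and *vax1* (1.09) mark hypothalamic or ventral forebrain territories, and *six6a* (1.1) the eye and hypothalamus. *lhx3*, which the pituitary needs, had 1.08, and the growth factor gene *fgf8b* 1.05. All 8 had an *rhs* response between -1.0 and -0.6 and a *gsp* response between 0.05 and 0.59. Only for *foxg1b* (1.17 to 1.35) did the whole counting interval lie past the threshold, and the lowest start was 0.65, for *fgf8b*.

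Protocadherins, cell adhesion proteins of neurons, supplied 6 members with the higher *gsp* response among 38 kept transcripts of their list (15.8%, against 1.36% of all), with a median difference of 0.41. *pcdh8* on chromosome 9 had 1031 and 776 in *gsp* mutants and siblings and 151 and 395 in *rhs*, a difference of 1.71, and its model overlaps no other. The other 5, *pcdh1a3* (1.85), *pcdh1g22* (1.69), *pcdh1a4* (1.22), *pcdh1g9* (1.08) and *pcdh1gc6* (1.07), lie in 2 clusters on chromosome 10 that share exons, and their models overlap 7 to 18 other rows. How reads were divided among them is uncertain, and zgc:162322, which overlaps 18 rows there, had a difference of 1.96. *pcdh1a3* was the only one of the named protocadherins past 1.5-fold in opposite directions, at 1034 and 511 in *gsp* and 669 and 1265 in *rhs*.

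Most skeletal muscle genes had the higher response in *gsp*, some through a higher value in *gsp* mutants, some through a lower value in *rhs* mutants and some through both. Of 95 kept transcripts of a muscle list, 15 were members with the higher *gsp* response (15.8%, against 1.36% of all kept transcripts) and 1 with the higher *rhs* response, and 82 had a difference above 0. The median response was 0.21 in *gsp* and -0.25 in *rhs*, with 19 list transcripts at least 1.5-fold higher in *gsp* and 12 at least 1.5-fold lower in *rhs*, beside 6.69% and 5.12% of all kept transcripts. Summed over the list, estimated counts were 11304770 and 9751563 in *gsp* mutants and siblings and 7676277 and 10521175 in *rhs* mutants and siblings, or 10.6%, 8.42%, 6.76% and 8.87% of each library.

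*ampd1*, the AMP deaminase of muscle, on chromosome 8 from 11594899 to 11626258, had 15485 and 7671 in *gsp* mutants and siblings and 4064 and 7798 in *rhs* mutants and siblings. The siblings were almost equal, with the *gsp* mutant above and the *rhs* mutant below them, and the difference was 1.87 (1.80 to 1.93). The fast myosin heavy chain gene *myhc4* had 34066 and 18895 in *gsp* mutants and siblings and 16602 and 33730 in *rhs*, a difference of 1.78. Here the *gsp* sibling was at 0.56 of the *rhs* sibling, and the *gsp* mutant reached the level of the *rhs* sibling.

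Fast myosin heavy chain genes next to *myhc4* on chromosome 5, between 33844138 and 33946746, had the same order of mutant and sibling. *myhz1.1* stood at 230677 and 128934 in *gsp* and 118267 and 206769 in *rhs*, and the differences of *myhz1.1*, *myhz1.2* and *myhz2* were 1.56, 1.59 and 1.55. These genes are close copies, so their reads may have been shared between them, although no models overlap. Some other parts of the fast sarcomere were members too, with *mybpc2b*, the fast myosin-binding protein C, at 1.49 and the actinins *actn3b* at 1.45 and *actn3a* at 1.25. So was *myom1a*, which crosslinks the M-band and is outside the list, at 1.38. Others kept in the list were not members, among them the myosin light chains *mylz2*, *mylz3* and *myl1*, the troponins *tnnt3b* and *tnnc2*, the tropomyosin *tpma* and the actins *acta1a* and *acta1b*.

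Some enzymes that fuel contraction were members as well, while *aldoaa*, *eno3*, *pgam2* and *ckmb*, kept in the list, were not. The muscle glycogen phosphorylase gene *pygma* had 12894 and 5510 in *gsp* mutants and siblings and 5366 and 6676 in *rhs*, a difference of 1.45. Phosphofructokinase (*pfkma*), outside the list, also had 1.45. Creatine kinase (*ckma*), among the most abundant transcripts at 807334 and 470198 in *gsp* and 475448 and 589399 in *rhs*, lay just past the threshold at 1.0. *atp2a1l*, a calcium pump of the sarcoplasmic reticulum, differed through *rhs* alone, with 25368 and 24906 in *gsp* and 11433 and 24975 in *rhs*.

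Further members from the muscle list were *smyhc3*, a slow myosin heavy chain (1.28), and nebulin (*neb*, 1.04). *vmhc*, the ventricular myosin heavy chain, also of the list, had 1.02, and its model overlaps 1 other. The list gene *ryr3*, at 379 and 293 in *gsp* and 606 and 1135 in *rhs*, had 1.19, and its model overlaps 1 other. Outside the list, further members chosen after their values were seen were *synm*, the intermediate filament protein synemin (1.22), and *myom1b* (1.3). Another was *mef2ca*, a transcription factor of muscle differentiation (1.07). The only list member in the other direction was the heart peptide gene *nppa*, at 2804 and 4478 in *gsp* and 5937 and 4361 in *rhs*, a difference of -1.21. The row wu:fi38e05, *myom2a* in RefSeq, had a difference of 1.69 on values of 947 and 500 in *gsp* and 8774 and 15853 in *rhs*, so that the lines differed far more than mutants differed from siblings.

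Most immediate early genes, which cells transcribe within minutes of a stimulus, were higher in each mutant, and a few of them much more so in *gsp*. Of 58 kept transcripts, 43 were at least 1.5-fold higher in *gsp* and 41 in *rhs*, beside 6.69% and 10.2% of all kept transcripts. The median responses were 0.97 and 0.99, and 4 were members with the higher *gsp* response (6.9%, against 1.36%) and 2 with the higher *rhs* response (3.4%, against 1.28%). *npas4*, a transcription factor that neurons induce on depolarization, on chromosome 14 from 31506584 to 31512448, had 1046 and 112 in *gsp* mutants and siblings and 210.5 and 222 in *rhs* mutants and siblings. Only the *gsp* mutant was high, 9.31-fold over its sibling, and the difference was 3.21 (2.82 to 3.60). The row zgc:175128, *egr4* in RefSeq, had the same shape, at 1056 and 172 in *gsp* and 286 and 277 in *rhs*, a difference of 2.49.

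*fos*, a subunit of the AP-1 factor, was high in both mutants, at 24678 and 569 in *gsp* and 10527 and 720 in *rhs*, a difference of 1.5. The zinc finger genes *egr1* and *egr2a* were likewise higher in both, 14.9-fold and 22.7-fold over siblings in *gsp* and 6.41-fold and 9.34-fold in *rhs*, with differences of 1.13 and 1.19. In the other direction stood *nr4a3*, an orphan nuclear receptor, at 1108 and 942 in *gsp* and 2719 and 962 in *rhs*, a difference of -1.35, and *mafk*, a small Maf factor, at -1.23.

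Genes of hormones and ion transport were members on both sides. Of 34 kept transcripts of an ionocyte list, 3 had the higher *gsp* response (8.8%, against 1.36% of all) and 2 the higher *rhs* response (5.9%, against 1.28%), and the median difference was 0.08. Among the 3 are *stc1l* and *prl*, which are hormone genes. In the list 8 were at least 1.5-fold higher in *gsp* and 15 in *rhs*, beside 6.69% and 10.2% of all kept transcripts, and 0 and 2 were lower. *stc1l*, a stanniocalcin, the hormone that limits calcium uptake in fish, had 1270 and 524 in *gsp* mutants and siblings and 349 and 665 in *rhs*, a difference of 2.12 (1.88 to 2.36). The *gsp* mutant was above and the *rhs* mutant below both siblings. Prolactin (*prl*), which sustains ion uptake in fresh water, had a difference of 1.05, and *rhcga*, a Rhesus glycoprotein that conducts ammonia, 1.0 (0.88 to 1.12). The sodium and chloride cotransporter gene *slc12a3* had 1160 and 257 in *gsp* and 520 and 415 in *rhs*, a difference of 1.76, and *slc4a2a*, an anion exchanger, 1.27.

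With the higher *rhs* response were *atp1b1b*, a beta subunit of the sodium pump, at 13822 and 16273 in *gsp* and 28354 and 15995 in *rhs* (-1.15), and carbonic anhydrase (*ca2*, -1.09). A run of potassium channel genes on chromosome 18 between 47061957 and 47080652, listed under clone names and called *kcnj1a.5*, *kcnj1a.4* and *kcnj1a.3* in RefSeq, had differences of -1.60, -1.62 and -1.38. Each was higher in both mutants, by 2.64-fold, 3.77-fold and 4.72-fold in *gsp* and by 7.54-fold, 10.9-fold and 11.5-fold in *rhs*. They are neighbouring copies of 1 family, and their reads may not be independent.

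Among 15 kept transcripts of a pituitary list, *prl* and *lhx3* were the 2 members (13.3%, against 1.36% of all), and the median difference was 0.41. The endocrine pancreas gene *sst2*, a somatostatin, was the 1 member among 11 kept of the pancreas list (9.1%, against 1.36% of all), with 1.1. The solute carriers as a family held 3 members on each side among 194 transcripts, 3.1% in all and near the 2.65% of all kept transcripts. On the *rhs* side were *slc25a38a*, a mitochondrial glycine carrier (-1.14), *slc6a11*, a GABA transporter (-1.06), and *slc27a2*, a fatty acid transporter (-1.02).

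Several fin fold, stromal and periderm genes among the members lay below the sibling level in *gsp* mutants, while in *rhs* mutants most of them were near or above theirs. The actinodins form the fibrils that stiffen the fin fold of fish. *and3*, on chromosome 10 from 23048766 to 23054968, had 7296 and 35394 in *gsp* mutants and siblings and 28199 and 32290 in *rhs* mutants and siblings. The *gsp* mutant alone was low, at 0.206 of its sibling, and the difference was -2.17 (-2.21 to -2.13). *and1* had 35298 and 76319 in *gsp* and 59753 and 52474 in *rhs*, a difference of -1.39. *and2* had 54716 and 102259 in *gsp* and 95059 and 81075 in *rhs*, a difference of -1.22. They lie on chromosomes 10, 24 and 2 and so are not neighbours.

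Keratocan (*kera*) and lumican (*lum*), leucine-rich proteoglycans of the corneal and dermal stroma that lie side by side on chromosome 4, had differences of -1.46 and -1.07. *kera* was at 5865 and 21418 in *gsp* and 4719 and 6657 in *rhs*, so it was lower in both mutants and the *gsp* sibling stood apart on the high side. The collagen chaperone gene *hsp47* had 19039 and 36408 in *gsp* and 16546 and 11203 in *rhs*, a difference of -1.59, with siblings 3.25-fold apart. These are matrix genes, and the median of the matrix list lay near that of all transcripts. Of its 63 kept transcripts 7 were members, all with the higher *rhs* response (against 1.28% of all kept transcripts), at a median difference of -0.06. *mmp13a* and *timp2b*, which were higher in both mutants, are among the 7.

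Keratins of the enveloping layer and periderm were among the most abundant members. *krt4* had 1961954 and 3665460 in *gsp* mutants and siblings and 3332159 and 2883598 in *rhs* mutants and siblings, a difference of -1.20 with the *gsp* mutant lowest. *cyt1* and *cyt1l*, type I cytokeratins that neighbour each other on chromosome 19, were at 694381 and 1404194, and at 643918 and 1412516, in *gsp* mutants and siblings. In *rhs* they were at 1418078 and 1298356, and at 1359964 and 1275741, and the differences were -1.23 and -1.31. Beside them the clone si:dkeyp-113d7.7 (*krt17* in RefSeq) had -1.10.

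Of 36 kept transcripts of the periderm and keratin list, 6 were members with the higher *rhs* response (16.7%, against 1.28% of all kept transcripts) and 1 with the higher *gsp* response. The median difference was -0.62, from 0.11 in *gsp* and 0.58 in *rhs*. The list as a whole was not lower in *gsp*, where 9 of the 36 were at least 1.5-fold higher and 8 lower, beside 6.69% and 2.81% of all kept transcripts. In *rhs* 20 were higher and 1 lower, beside 10.2% and 5.12%. Of the 6 members on the *rhs* side, 3 carry clone names. zgc:110712, *krt99* in RefSeq, had 474 and 2699 in *gsp* and 626 and 803 in *rhs*, a difference of -2.24, zgc:136930 had -1.04, and zgc:158463 is a ribosomal RNA in RefSeq and no keratin. Outside the list, zgc:92061 (*krt97* in RefSeq) had -1.07 and the gap junction gene *cx30.3* -1.31. The list's summed counts were 4606406 and 8086288 in *gsp* mutants and siblings and 7956328 and 6741079 in *rhs*. These sums include zgc:158463, at 25719 and 18200 in *gsp* mutants and siblings and 359290 and 12786 in *rhs*. The member in the other direction was *gstp2*, a glutathione transferase, at 7330 and 836 in *gsp* and 1854 and 721 in *rhs*, a difference of 1.68.

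**Figure D3:**
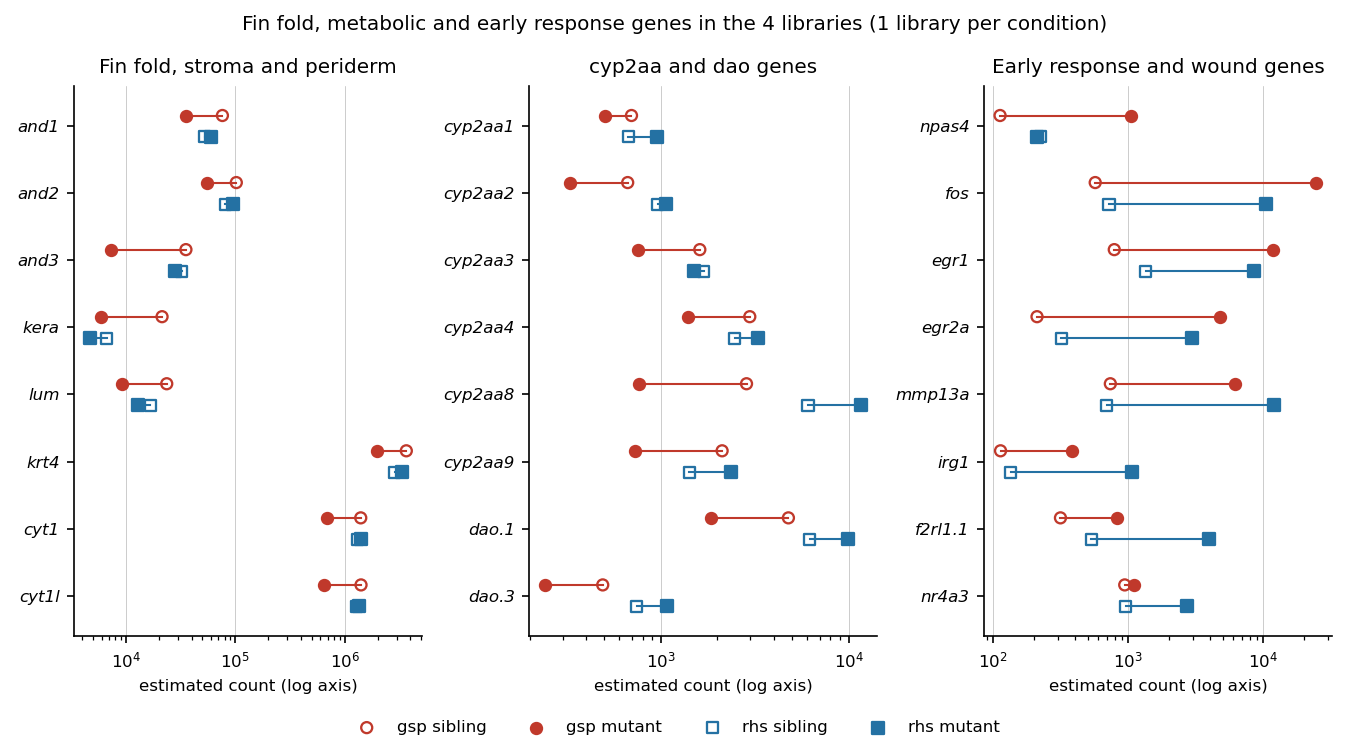
Estimated counts on a log axis for fin fold, stromal and periderm genes (left), *cyp2aa* and *dao* genes (centre), and early response and wound genes (right), with circles for *gsp*, squares for *rhs*, filled marks for mutants and open marks for siblings, 1 library each. On the left the filled circle lies below its sibling for every gene shown. In the centre the pairs run in opposite directions for every gene but *cyp2aa3*, before centring. On the right *npas4* is high in the *gsp* mutant alone at 1046.

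A run of 6 *cyp2aa* genes, cytochrome P450 monooxygenases of a family found in fish, stood out by position as well as by value. They lie on chromosome 23 between 42822543 and 42954118, none overlaps another row, and all 6 had the higher *rhs* response. *cyp2aa8* had 764 and 2857 in *gsp* mutants and siblings and 11676 and 6075 in *rhs* mutants and siblings. It was lower in *gsp* and higher in *rhs*, a difference of -2.93 (-3.06 to -2.81). *cyp2aa9* had 731 and 2118 in *gsp* and 2351 and 1419 in *rhs*, a difference of -2.35, again in opposite directions.

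*cyp2aa4* (-1.59), *cyp2aa2* (-1.25), *cyp2aa1* (-1.06) and *cyp2aa3* (-1.01) completed the run. For *cyp2aa3*, at 755 and 1611 in *gsp* and 1504 and 1691 in *rhs*, the difference came from *gsp* alone. These genes are similar in sequence, and how reads shared by copies were assigned is not given in the sources used here. Including *cyp24a1*, which degrades vitamin D (-1.21), and *cyp2x7* (-1.14), 8 of 32 kept transcripts of the P450 list were members (25.0%, against 1.28% of all kept transcripts), with 0 in the other direction and a median difference of -0.41.

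D-amino acid oxidases, peroxisomal enzymes of liver and kidney, had the same sense. *dao.1* was at 1845 and 4777 in *gsp* mutants and siblings and at 9983 and 6213 in *rhs*, a difference of -2.14. *dao.3*, its neighbour on chromosome 5, was at 242 and 490 in *gsp* and at 1081 and 745 in *rhs*, a difference of -1.65. *hao1*, a glycolate oxidase of liver peroxisomes, had -1.06, and *rdh1*, a retinol dehydrogenase, had 418 and 728 in *gsp* and 729 and 414 in *rhs*, a difference of -1.71.

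A liver and plasma list had 5 members among 58 kept transcripts, all with the higher *rhs* response (8.6%, against 1.28% of all kept transcripts), and 54 of the 58 had a difference below 0. The median response was 0.03 in *gsp* and 0.61 in *rhs*, with 34 transcripts at least 1.5-fold higher in *rhs* and 10 in *gsp*, beside 10.2% and 6.69% of all kept transcripts. The cellular retinol-binding protein gene *rbp2b* had 2110 and 5067 in *gsp* and 6644 and 7150 in *rhs* (-1.25). Hepcidin (*hamp1*), the hormone that lowers iron release, had 335 and 208 in *gsp* and 555 and 156 in *rhs* (-1.23). *pck1*, the gluconeogenic carboxykinase, was higher in both mutants, at 12970 and 2106 in *gsp* and 15714 and 1219 in *rhs* (-1.15). *fabp1b.1*, a fatty acid-binding protein, and *apom*, an apolipoprotein, both had -1.09. The summed counts of the list were 2268836 and 2776001 in *gsp* mutants and siblings and 3627892 and 2713563 in *rhs*. Whole larvae were sequenced, so these values do not tell which tissue held the RNA. The part of liver size in them was not tested.

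On chromosome 7 between 9179702 and 9351534, 5 members with clone names in the table are called *aep1*, *jac10*, *jac1*, *jac4* and *jac8* in RefSeq, the *jac* genes being named for the lectin jacalin. The most abundant, zgc:113413 (*aep1*), had 57942 and 153849 in *gsp* mutants and siblings and 127279 and 147582 in *rhs*, a difference of -1.28. The differences of the others ran from -1.66 for wu:fa92h10 (*jac4*) to -1.27 for zgc:174688 (*jac10*). All 5 were lower in *gsp* mutants, between 0.373 and 0.426 of their siblings, and near their siblings in *rhs*. For wu:fb11f10, wu:fa92h10 and zgc:172260 the *gsp* siblings were 2.34-fold to 4.3-fold above the *rhs* siblings. In wu:fa92h10 the *gsp* mutant, at 327, was near the *rhs* mutant and sibling at 317 and 286, and the *gsp* sibling stood apart at 875. In zgc:172260 these values were 170, 174, 170 and 399.

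Several members linked to wounding and inflammation, grouped after their values were seen, were higher in both mutants and more so in *rhs*. The collagenase gene *mmp13a* had 6137 and 737 in *gsp* mutants and siblings and 12005 and 691 in *rhs*, a difference of -1.15. *irg1*, which makes itaconate in activated macrophages, had 381 and 113.2 in *gsp* and 1063 and 135 in *rhs*, a difference of -1.32. The protease-activated receptor gene *f2rl1.1* had 827 and 315 in *gsp* and 3968 and 534 in *rhs*, a difference of -1.59. In each gene the *rhs* mutant was the highest of the 4 libraries.

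Prostacyclin synthase (*ptgis*) was at 2.06-fold of its sibling in *gsp* and 4.23-fold in *rhs*, the metalloproteinase inhibitor gene *timp2b* at 1.83-fold and 3.80-fold, the inhibitor of NF-κB *nfkbiaa* at 2.72-fold and 6.05-fold and the fatty acid elongase gene *elovl7b* at 4.79-fold and 10.6-fold. Another elongase, *elovl6l*, was higher in *rhs* only (-1.10). *ifitm1*, an interferon-induced membrane protein, had 132 and 113.3 in *gsp* and 424 and 128 in *rhs*, a difference of -1.60. *klf4a*, a Krüppel-like factor, was at 190 and 237 in *gsp* and at 1196 and 458 in *rhs*, a difference of -1.79, and *znf750*, an epidermal differentiation factor in mammals, had -1.02. Of the 33 kept transcripts of a neutrophil and macrophage list, *mmp13a* and *irg1* were the 2 members (6.1%, against 1.28% of all kept transcripts). In that list 30 had a difference below 0. Of its transcripts 17 were at least 1.5-fold higher in *rhs* and 12 in *gsp*, where 10.2% and 6.69% of all kept transcripts were. The Wnt inhibitor gene *dkk1b* (-1.17), *thbs4a*, a thrombospondin of tendon matrix (-1.19), and *s100a11*, a calcium-binding protein (-1.20), were further members on the *rhs* side, and in *gsp* mutants they were at 0.778, 0.607 and 0.541 of the sibling.

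The members with the largest differences on the *rhs* side were rows that carry structural RNA or have no gene name. *rn7sk*, the 7SK small nuclear RNA that holds back transcription elongation, on chromosome 13 from 697630 to 697951, had 292 and 340 in *gsp* mutants and siblings and 3682 and 216 in *rhs* mutants and siblings, a difference of -4.40. zgc:158463, the ribosomal RNA row, had 25719 and 18200 in *gsp* and 359290 and 12786 in *rhs*, also -4.40. LOC100333249 and sb:cb846, neighbours on chromosome 4, had -5.11 and -4.58. In all 4 rows the *rhs* mutant library alone was high, 17.0-fold to 54.0-fold over its sibling. How RNA was selected for the libraries beyond an mRNA preparation is not given in the sources used here, and the share of such RNA carried over into the *rhs* mutant library was not tested. RefSeq lists 8 of the 361 members as other than protein-coding.

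In other lists the shares rest on few members each, and all kept transcripts had 1.36% on the *gsp* side and 1.28% on the *rhs* side. Heat shock genes held 2 of 46 on the *gsp* side (4.3%), both small heat shock proteins. These were *hspb9*, at 1560 and 1755 in *gsp* and 1455 and 5236 in *rhs* (1.59), and *hspb6* (1.39). The interferon list held 2 of 23 on the *gsp* side (8.7%), although 16 of the 23 had a difference below 0 and the median was -0.18. The 2 were *eif2ak2*, the kinase that halts translation on double-stranded RNA (1.41, interval 0.97 to 1.84), and *irf8*, a factor of macrophages (1.02, interval 0.65 to 1.39). Both intervals reach below the threshold. A list of 67 stress genes held *gstp2* on the *gsp* side (1.5%). On its *rhs* side (3.0%) were the quinone reductase gene *nqo1* (-1.06) and metallothionein *mt2* (-1.12). Pigment cell genes held 1 on each side of 38 (2.6% each), the purine phosphorylases *pnp4b* (1.19) and *pnp5a* (-1.18).

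A single member was found among 34 circadian genes (*rorb*, 1.14), 71 ribosomal protein genes (*rps8b*, 1.41, interval 0.98 to 1.84), 46 proteasome genes (*psma6b*, 1.21), 37 lens genes (*crybb1l3*, a crystallin, -1.09), 29 red blood cell genes (*klf4a*), 36 tight junction genes (*cldnk*, -1.10) and 36 cholesterol and steroid genes (*sc5dl*, -1.10). That is from 1.4% of the ribosomal protein list to 3.4% of the red blood cell list, against 1.36% and 1.28% of all kept transcripts. The red blood cell member *klf4a* is *klf4* in RefSeq, and it was named above beside members linked to wounding. *rps8b* and *psma6b* ran against their lists, where 68 of 71 ribosomal protein and 37 of 46 proteasome differences were below 0, with medians of -0.15 and -0.19. The interval of *psma6b* was 0.71 to 1.7. Lens genes had median responses of -0.69 in *gsp* and -0.40 in *rhs*, with 30 of 37 at least 1.5-fold lower in *gsp* and 3 in *rhs*, beside 2.81% and 5.12% of all kept transcripts. No member was found among 54 oxidative phosphorylation genes, 66 histone and replication genes, 46 hox genes, 47 endosome traffic genes, 22 trim and ftr genes or 8 hatching gland genes. Their median differences were -0.10, -0.11, 0.00, -0.02, -0.07 and -0.43. Myosin Vb works in endosome traffic, and in that list no difference was below -0.74 or above 0.62.

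**Figure D4:**
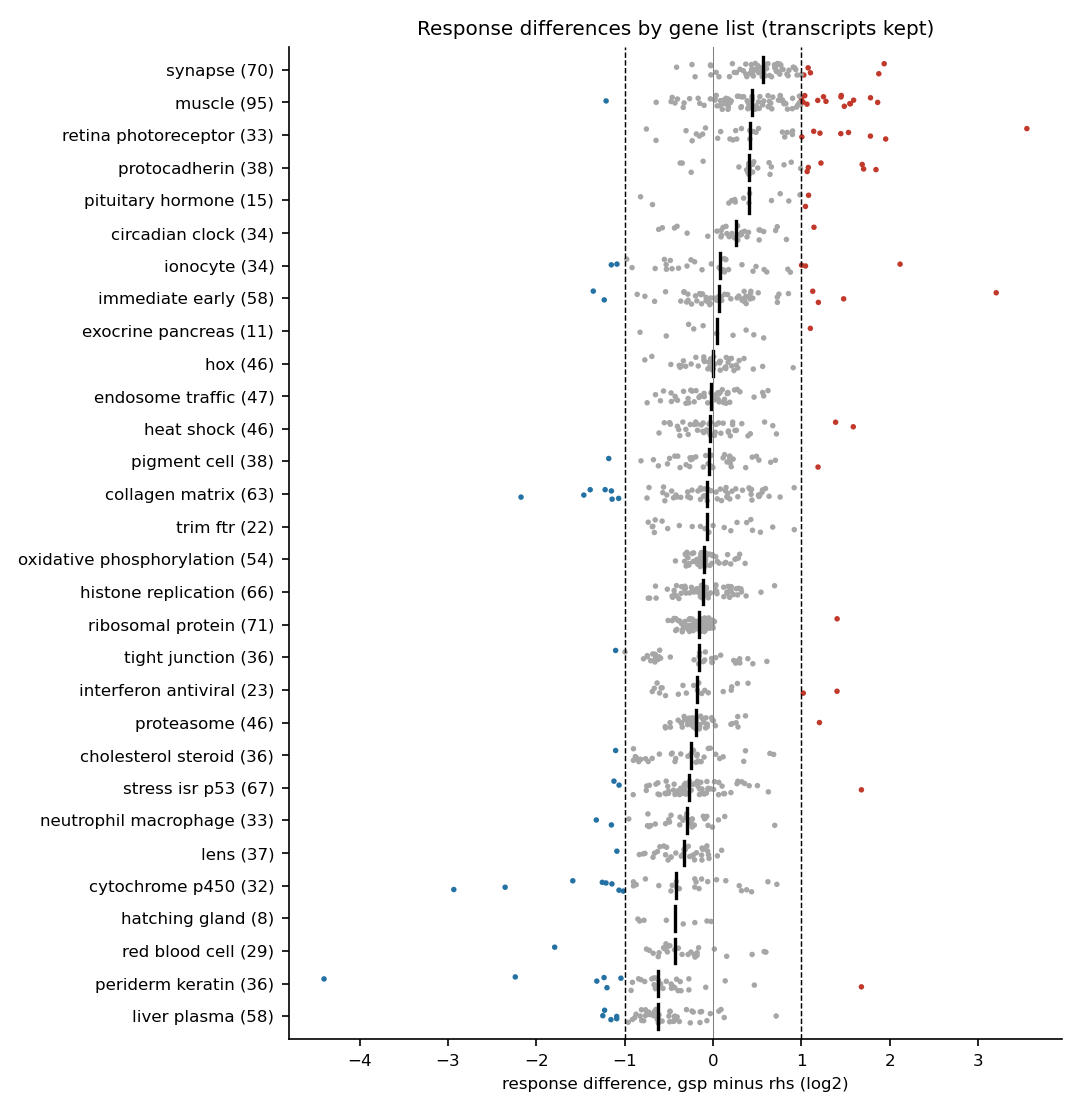
The response difference, *gsp* minus *rhs* on the log2 scale, is on the horizontal axis for each kept transcript of 30 gene lists, with the number kept in brackets, a black bar at the list's median and dashed lines at 1 and -1. Red points had the higher *gsp* response and blue points the higher *rhs* response by 1 or more, and list medians run from 0.56 for the synapse list to -0.62 for the periderm and liver lists.

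Grouped by the letters of their symbols, 4 families held 3 or more members, beside 2.65% of all kept transcripts. These were *cyp* (8 of 34, 23.5%), *pcdh* (6 of 40, 15.0%), *slc* (6 of 194, 3.1%) and *atp* (3 of 64, 4.7%). The share of *slc* was near that of all kept transcripts. Of 336 families with at least 5 transcripts, 276 held none. On both sides of the threshold stood *pnp*, *slc* and *atp* genes, so a shared stem did not fix the direction.

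Members also stood apart in expression level, which enters the definition through its minimum and ratios, and in position, which does not. Their mean estimated count had a median of 1179, beside 2176 for all kept transcripts, and the share of members fell from 4.88% in the lowest of 5 equal bins of expression to 1.39% in the next to highest and was 2.13% in the highest. Counting error is larger at low counts, and its part in that trend was not tested. By chromosome the share ran from 1.79% on chromosome 19 to 4.48% on chromosome 25, and chromosome 21, where *myo5b* lies, had 2.13%. Another member lay within 100 kb of 71 members (19.7%) and of 8.7% of the other kept transcripts, and without overlapping models the share for members was 18.0%. The *cyp2aa*, fast myosin, *jac*, *kcnj1a*, keratin and protocadherin runs are part of this count.

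In 150 members (41.6%) the sibling libraries were at least 1.5-fold apart, beside 18.5% of all kept transcripts, and since sibling values enter the response difference this share is not independent of it. In some of these members the line difference far exceeded the mutant difference. The apolipoprotein gene *apob* had 21155 and 25623 in *gsp* mutants and siblings but 610 and 363 in *rhs*, and the hypoxia factor gene *epas1a* had 9921 and 19436 in *gsp* and 694 and 704 in *rhs*. *rgl3a*, a regulator of Ral, was at 1325 and 2847 in *gsp* and at 197 and 120 in *rhs*, and *mt2* at 746 and 1243 in *gsp* and 16282 and 13279 in *rhs*. *mgst2*, a microsomal glutathione transferase, had siblings 4.82-fold apart. With the siblings held within 1.5-fold, 215 members were found, and 210 of them were among the 361.

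The minimum also shaped what could be a member. A further 219 transcripts were below 100 in the *rhs* mutant library only, and 67, 39 and 55 in the *gsp* mutant, *gsp* sibling and *rhs* sibling libraries only, so a transcript that nearly vanished in 1 mutant was left out. Among members with no list, *pdzk1ip1l* was at 270.5 and 231 in *gsp* and 142 and 865 in *rhs* (2.75). *mfsd4b*, of a transporter superfamily, lay above its sibling in *gsp* and below it in *rhs* (1.95). LOC100538278, described in the deposited file as glypican-6-like, was at 603 and 4375 in *gsp* and 3071 and 3385 in *rhs* (-2.81).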

How the data were processed

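RNA of pooled larvae was measured in 4 libraries, 1 per condition. The deposited estimated counts were made by the authors, who trimmed 100 bp paired reads with the FastX toolkit, aligned them with TopHat and computed a value per transcript with DEGseq, and the submitters' notes name danRer7. The paper calls these values RPKM, but the deposited columns, floored at 1, sum to over 106188690 per library and were read as such counts. The deposited normalized columns are log2 values shifted per library by the authors and were used only as an alternative. Deposited tables of fold changes hold the authors' own comparisons and were not used. How multiply mapped reads or strand were handled is not given in the sources used here.

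Transcripts with at least 100 in each library were kept. The limit printed as 1.5-fold for a single response is that of the study's methods, rounded. Ratios were centred on their medians, differences of 1 or more were counted, and no test was run, because a condition has 1 library. A ratio does not depend on the unit, while counting intervals (95%, Poisson, PCR copies ignored) hold only for counts. The steps were tested on simulated data. Python 3.11.15, pandas 2.3.3, scipy 1.17.1 and R 4.3.3 with edgeR 4.0.16 (TMM scaling only) were used. Names for clone rows came from RefSeq (assembly GRCz12tu) by identifier, which 339 of 361 members matched.

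Members, the 30 lists and the alternatives (other minimums, pseudocounts of 10 and 100, scalings, thresholds, subsets and controls) were chosen with earlier results of these data known. The rule named, among transcripts with gene names, the 12 largest differences per direction, up to 10 with opposite responses of 1.5-fold or more, up to 4 per list and direction, up to 5 per family of 3 or more members, and 3 on each side of each threshold. All other genes were chosen after their values were seen, including every one with a clone or locus name and the forebrain, *jac*, *kcnj1a* and further muscle genes. Some genes that the rule would name are not reported here.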

Additional observations from a re-analysis of the deposited data

Results flagged for a closer look

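Of the 40 transcripts whose *gsp* mutant and *rhs* mutant departed from their siblings in opposite directions, each by at least 1.5-fold after centring, 21 are named here. With 1 library per condition the difference between the lines was not tested. On the side of a higher *gsp* response these were *stc1l* with a response difference of 2.12, *mfsd4b* with 1.95, *ampd1* with 1.87, *pcdh1a3* with 1.85, *myhc4* with 1.78, wu:fi38e05 with 1.69, *myhz1.2* with 1.59, *myhz1.1* with 1.56, *rps8b* and *eif2ak2* with 1.41 each, and *sim1a* with 1.31. On the side of a higher *rhs* response they were *thbs4a* with -1.19, *nppa* with -1.21, *cyp2aa4* and *hsp47* with -1.59 each, *dao.3* with -1.65, *rdh1* with -1.71, *rgl3a* with -1.91, *dao.1* with -2.14, *cyp2aa9* with -2.35 and *cyp2aa8* with -2.93. The sibling libraries were nearly equal for *ampd1* (ratio 0.984) and far apart for *rgl3a* (23.8) and *hsp47* (3.25).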

How the results depend on the processing

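No paired analysis was possible because each condition has 1 library and the labels give no replicate numbers to pair. The number of members was 182 with a minimum of 500 (86 with the higher *gsp* response and 96 with the higher *rhs* response), 222 with a pseudocount of 100 (95 on the *gsp* side), 1968 at a threshold of 0.58 (968 and 1000), 21 at a threshold of 2 (7 and 14), 215 with siblings within 1.5-fold (115 and 100) and 1441 when the mutants were set against each other with no sibling (881 and 560). The last keeps the line difference and shares 176 transcripts with the 361. Divided by the library total, 339 lay on the *gsp* side and 101 on the *rhs* side. Under a minimum of 50 or 200, a pseudocount of 10, TMM scaling, no centring, the authors' normalized columns, 1 row per gene and no overlapping models, the total stayed between 279 and 446. Of the named differences, *gnat2* was 0.03 when divided by the library total. With the mutants set against each other the sign turned for *apob* (5.12), *epas1a* (3.84), *rgl3a* (2.76), *mgst2* (1.33), *cyp2x7* (0.77), wu:fb11f10 (0.74), *nfkbiaa* (0.54), zgc:136930 (0.54), *gnat2* (0.44), *kera* (0.32), *hsp47* (0.21), wu:fa92h10 (0.05) and wu:fi38e05 (-3.21). The cause was not tested. Low counts limit the members near the minimum, with a counting half-width of up to 0.499, and a library that departs from others of its condition cannot be recognized with 1 library per condition.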
